A study of Rattus norvegicus with 44 samples.

Results

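The genes described here run the conversion of glucose to lactate or answer a shortage of oxygen. They comprise 34 genes taken by name: 3 carriers of glucose and lactate, 17 enzymes of glycolysis, 3 enzymes that set the rate of glycolysis or the entry of pyruvate into mitochondria, 2 oxygen sensors, 6 other targets of the low-oxygen response and 3 hydroxylases that modify collagen. A gene was measured if a probe set carried its symbol alone, and the probe set with the highest mean over the 38 arrays of the larger set stood for it. This left 33 of the 34 genes, out of 14324 genes with such a probe set and 27342 probe sets in all. Hk1, a hexokinase, had no probe set with its symbol alone.

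The samples were whole ovaries of female Sprague-Dawley rats taken 4 days after birth and kept in culture for 2 days, either untreated or with 1 growth factor at 50 ng/ml. The larger set held 38 arrays, 14 of them from untreated controls and 3 from each of 8 treatments: PDGFab (the heterodimer of platelet-derived growth factor), FGF2, FGF7, KITLG, LIF, BMP4, AMH and GDNF. The smaller set held 6 arrays, with 3 samples of CTGF, connective tissue growth factor, and 3 untreated controls of its own. The added proteins were rat FGF2, GDNF, LIF and PDGFab, mouse KITLG, and human AMH, BMP4, FGF7 and CTGF. Each sample pooled the 2 or 3 ovaries of a single well, which came from different pups of the same litter, so that a sample is a pool of pups and not an animal. The study's results section counts fewer GDNF samples than the labels, which give 3, and all 3 were used. A day of culture included controls and up to 3 of the growth factors, and the labels do not say which samples shared a day. The study asked how these factors act on the ovary at the age when primordial follicles start to become primary follicles. Values are log2 expression levels, so that a difference of 1 is a doubling, and array medians ran from 5.93 to 6.01 in the larger set and from 6.29 to 6.35 in the smaller one. Markers fixed for the tissue were found: Zp3, a coat protein of the oocyte, lay between 10.09 and 11.86 on the 38 arrays, and Wt1, a transcription factor of pregranulosa cells, between 9.82 and 10.92. In RNA from whole ovaries, fewer cells of a type and less RNA per cell cannot be told apart.

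Glycolysis breaks glucose down to pyruvate in the cytosol and yields ATP without oxygen, and lactate dehydrogenase then turns pyruvate into lactate. When oxygen is scarce, the prolyl hydroxylases of the Egln family no longer mark the hypoxia-inducible factors (HIF) for destruction, and these factors switch on the carriers and enzymes of glycolysis together with genes such as Bnip3, Ankrd37 and P4ha1. In the ovary, granulosa cells carry out much of the glycolysis and hand pyruvate to the oocyte, which uses glucose poorly, and explanted organs depend on oxygen that diffuses in from the medium.

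PDGFab was the growth factor with which most of these genes stood higher. Relative to the 14 controls, 30 of the 33 genes lay above the control mean and 3 below it, with a median log2 change of 0.44 over the genes and of -0.005 over all probe sets. A limma fit of all 38 arrays, adjusted by the Benjamini-Hochberg method over the 27342 probe sets, called 3 of the 33 higher at an adjusted p under 0.05 and none lower, where 0.183% of all probe sets were called higher and 0.0512% lower. The 3 were Slc2a3, Eno1 and Pfkfb4. The study used wider criteria, applied here with limma: p no higher than 0.05 before adjustment, linear group means that differ by 10 units or more, and a ratio of these means that reaches 1.2 or falls to 0.83. These were met by 20 of the 33 genes, all higher, against 3.64% of all probe sets higher and 1.69% lower.

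The carriers of glucose and lactate held the 2 largest changes with PDGFab. Slc2a3 (probe set 10865349), a glucose carrier of high affinity also called Glut3, was at 7.26, 6.08 and 6.98 in the 3 treated samples, and at 4.88 in the lowest, 5.58 in the median and 6.21 in the highest control. Samples 1 and 3 lay above every control and sample 2 lay within the upper part of their range. The log2 change of 1.13 (SE 0.23, n = 3 and 14) passed the test with an adjusted p of 0.025 from limma, and the exact two-sided permutation test over the 680 splits of the arrays gave p = 0.00441. Slc16a3, which exports lactate from glycolytic cells, was at 6.76, 6.34 and 7.31 with PDGFab, and the controls ran from 5.24 through a median of 5.73 to 6.30. The groups did not overlap, where 0.618% of all probe sets had every PDGFab sample above every control, and the change of 1.08 (SE 0.27) missed the adjusted threshold in limma at 0.0716, with an exact permutation p of 0.00147, the smallest that 3 against 14 can give. Slc2a1, the general glucose carrier Glut1, met the wider criteria with a change of 0.67 (SE 0.24, adjusted p = 0.29 from limma), and only sample 3, at 9.91, exceeded the highest control at 9.57.

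Among the enzymes of upper glycolysis, 7 of the 8 measured lay above the control mean with PDGFab and Pfkm lay at it, and 5 met the wider criteria. Hk2, the hexokinase that traps glucose in the cell, was at 7.49, 7.47 and 8.24, and the controls had a lowest value of 6.23, a median of 6.69 and a highest value of 7.36. Every treated sample lay above every control, and the change was 0.99 (SE 0.28, adjusted p = 0.117 from limma). Aldoc, an aldolase known from brain, was at 8.07, 7.32 and 8.29, with controls from 6.26 to 7.88 around a median of 6.86. Its change of 1.05 (SE 0.27, adjusted p = 0.0838 from limma) was carried by samples 1 and 3, which were above the highest control. The other 3 were Tpi1, the triosephosphate isomerase, with a change of 0.74, Aldoa, the general aldolase, with 0.46, and Gpi, the glucose-phosphate isomerase, with 0.34. The phosphofructokinases, which commit sugar to glycolysis, did not meet the criteria: the changes were 0.32 for Pfkl, 0.28 for Pfkp and 0.00 for Pfkm (SE 0.22, 0.27 and 0.17).

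Lower glycolysis held the gene with the smallest adjusted p. Eno1 (probe set 10824780), the general enolase, was at 12.25, 12.04 and 12.36 with PDGFab, and the controls lay between 11.56 and 11.95 around a median of 11.66. All 3 treated samples stood above all 14 controls. The change of 0.53 (SE 0.09) had an adjusted p of 0.00522 in limma and an exact permutation p of 0.00147. The other probe sets of Eno1, 2 in number, gave 0.56 and 0.55. The study lists Eno1 as higher with PDGF on 1 of these other probe sets. Pgk1, the phosphoglycerate kinase, was at 10.18, 10.36 and 10.78 against controls from 8.99 through 9.62 to 10.22, a change of 0.85 (SE 0.23, adjusted p = 0.0914 from limma). Samples 2 and 3 exceeded every control and sample 1 fell just below the highest. Eno2, an enolase known from neurons, changed by 1.03 (SE 0.26), Ldha, the lactate dehydrogenase subunit that favours lactate, by 0.55 (SE 0.18) and Pkm, the pyruvate kinase, by 0.50 (SE 0.12), and these met the wider criteria with adjusted p-values of 0.0706, 0.204 and 0.0683 from limma. Gapdh, often used as a reference gene, was 0.20 higher (SE 0.07, adjusted p = 0.239), short of the ratio of 1.2, and the 16 probe sets that carry its symbol alone gave changes between 0.20 and 0.44. Ldhb, the subunit that favours pyruvate, was 0.13 lower on the log2 scale at 9.52, 9.91 and 10.01 against a lowest control of 9.68 and a median of 9.97. Pgam1, the phosphoglycerate mutase, lay at the control mean, on a dim probe set with a mean level of 5.18.

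**Figure D1:**
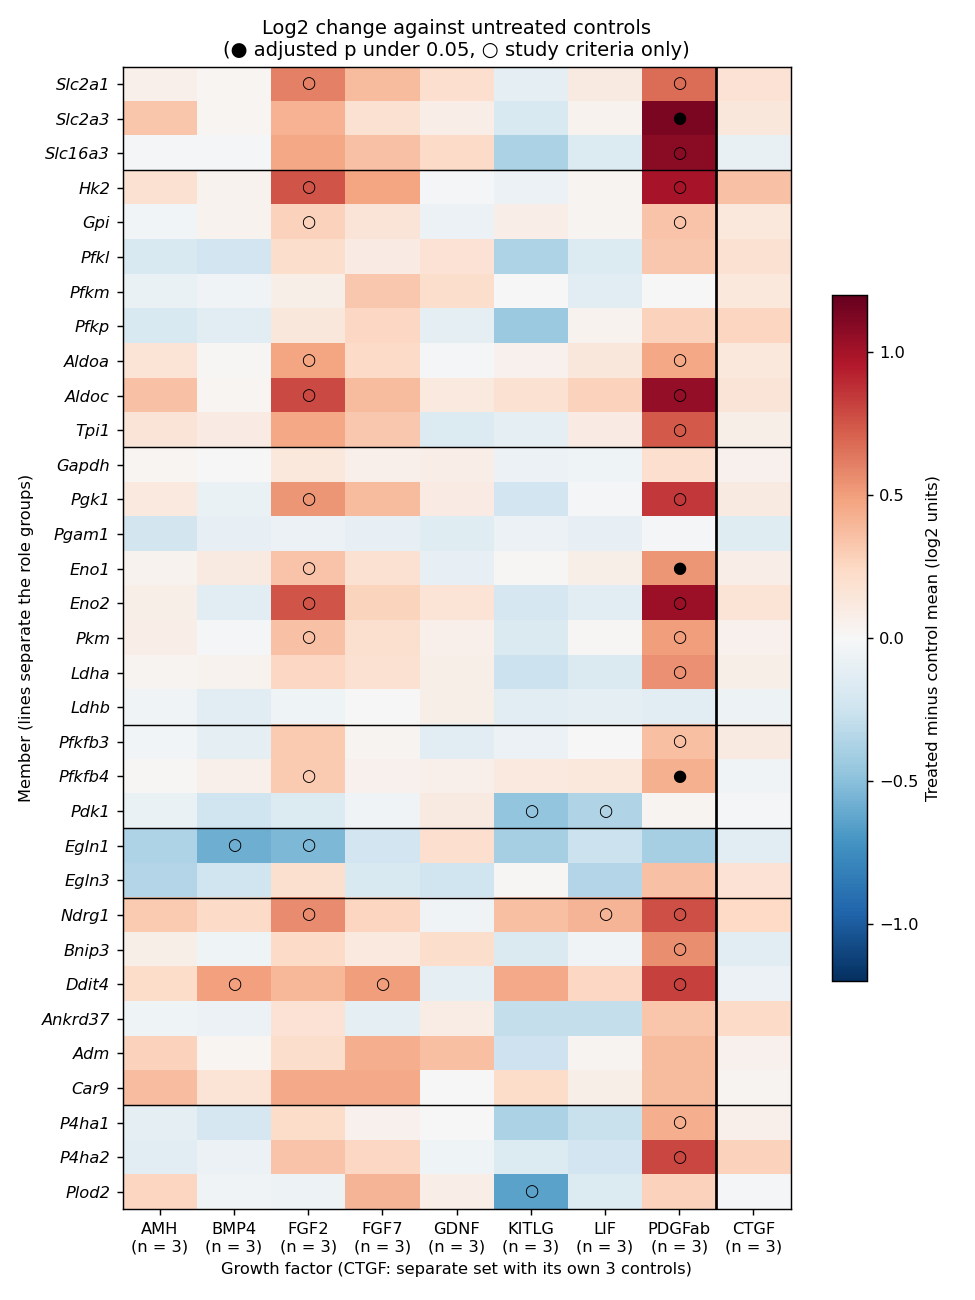
Log2 change of each of the 33 genes (rows, grouped by role) with each growth factor (columns) against its untreated controls, in colour from blue (lower) to red (higher). Filled dots mark an adjusted p under 0.05 and open dots the wider criteria alone; PDGFab holds all 3 filled dots and FGF2 the next most open dots, 12.

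The enzymes that set the pace of glycolysis did not move alike. Pfkfb4 (probe set 10913469), which makes fructose-2,6-bisphosphate, the activator of phosphofructokinase, was at 6.99, 6.69 and 6.62 with PDGFab against controls from 6.14 through 6.33 to 6.57. The groups did not overlap, and the change of 0.43 (SE 0.10) passed with an adjusted p of 0.0444 from limma. Pfkfb3, its relative, changed by 0.36 (SE 0.17) and met the wider criteria, while Pdk1, the kinase that closes pyruvate dehydrogenase, was at 8.85, 8.85 and 9.20 within the control range of 8.59 to 9.24. Of the oxygen sensors, Egln3 was 0.35 higher and Egln1, on the brighter of its probe sets, 0.40 lower on the log2 scale. Neither met the criteria (adjusted p = 0.567 and 0.525 from limma).

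Of the 6 other low-oxygen targets, 3 met the wider criteria with PDGFab. Ndrg1, a stress gene of differentiating cells, was at 9.24, 8.67 and 9.68 against controls between 8.05 and 8.85 around a median of 8.39, a change of 0.77 (SE 0.18, adjusted p = 0.0538 from limma). Ddit4, an inhibitor of mTORC1 also called Redd1, changed by 0.82 (SE 0.23) and Bnip3, which marks mitochondria for removal, by 0.56 (SE 0.21), each with sample 3 alone above the highest control. Ankrd37, Adm, the peptide adrenomedullin, and Car9, a carbonic anhydrase of the cell surface, had changes of 0.33, 0.38 and 0.38 and did not meet them. Among the collagen hydroxylases, P4ha2 was at 8.31, 8.02 and 8.94 against controls from 7.26 through 7.54 to 8.16, a change of 0.80 (SE 0.22, adjusted p = 0.108 from limma). P4ha1, the other prolyl hydroxylase subunit, changed by 0.44 and met the wider criteria. Plod2, a lysyl hydroxylase, was at 11.09, 10.72 and 10.79 inside the control range of 9.56 to 11.18.

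The 3 calls with PDGFab rested on few samples. Without PDGFab sample 1 no gene passed the adjusted threshold, and the same held without sample 3, whereas 4 passed without sample 2. The number meeting the wider criteria ran from 16 to 22 over these fits, for which shares over all probe sets are not given here. The changes of Slc2a3, Eno1 and Pfkfb4 themselves stayed between 0.89 and 1.48, 0.46 and 0.61, and 0.32 and 0.51, and Pfkfb4 missed the threshold in each of the 3 fits. Without sample 3 the change was 0.22 for Pfkfb3 and 0.24 for P4ha1.

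**Figure D2:**
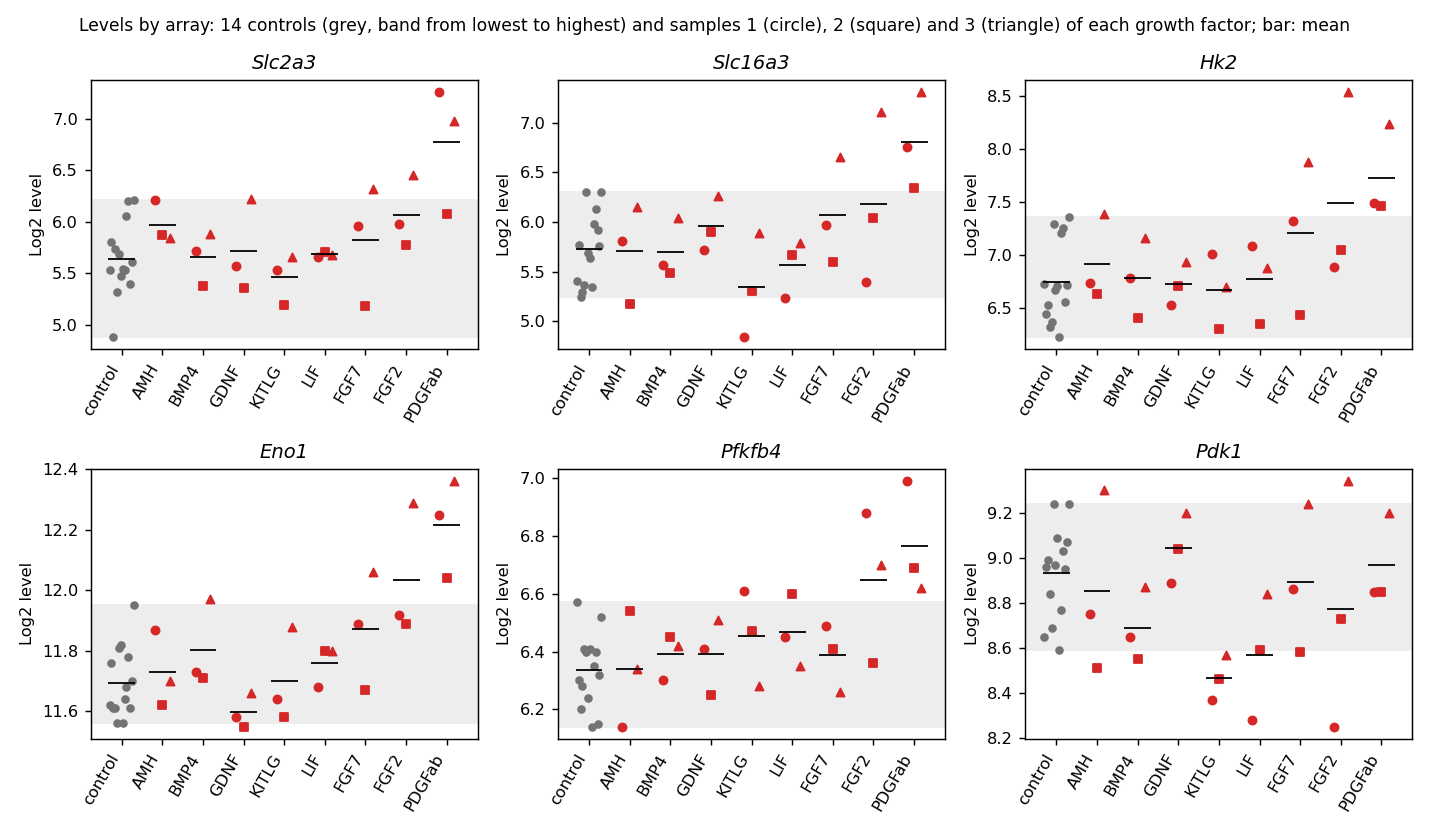
Log2 level of 6 of the genes on each of the 38 arrays, with the 14 controls in grey, the band from the lowest to the highest control, and samples 1 to 3 of each growth factor in red; bars are group means. The PDGFab samples stand above the band for Slc16a3, Hk2, Eno1 and Pfkfb4, and the KITLG samples below it for Pdk1.

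Promoter sequences were compared for the motif that the HIF factors bind. Its core is written ACGTG or GCGTG, on either strand, and a CACGTG holds a match on each strand. RefSeq promoters (build GRCr8, 250 bases before to 50 bases after the start) were matched by gene number to 30 of the 33 genes, with 33 windows in all, since Aldoa and Eno1 have several. Slc2a3, Pgk1 and Ndrg1 were not among the 30. ACGTG was found in 60.6% of the windows and in 19.3% of all 33469 windows of that length, and GCGTG in 54.5% and 29.7%. Windows with 3 or more matches made up 30.3% of these windows and 8.15% of all. Base composition was not matched, and a match describes the letters and not a bound site. Part of the list was chosen as known low-oxygen targets, so a higher share than over all windows is no independent finding. The windows below are those of 2 of the genes called with PDGFab, of Ldha, which had the most matches, of the genes whose levels followed Pgk1 most closely in untreated ovaries (Ankrd37 and P4ha1), and of Pdk1, whose KITLG samples all lay below the controls. Capitals mark the matches. Eno1 is at chr5:166003111-166003410, Pfkfb4 at chr8:118525916-118526215, Ldha at chr1:106507842-106508141, Ankrd37 at chr16:53001257-53001556, P4ha1 at chr20:27844796-27845095 and Pdk1 at chr3:77113264-77113563, all on the plus strand.
Eno1: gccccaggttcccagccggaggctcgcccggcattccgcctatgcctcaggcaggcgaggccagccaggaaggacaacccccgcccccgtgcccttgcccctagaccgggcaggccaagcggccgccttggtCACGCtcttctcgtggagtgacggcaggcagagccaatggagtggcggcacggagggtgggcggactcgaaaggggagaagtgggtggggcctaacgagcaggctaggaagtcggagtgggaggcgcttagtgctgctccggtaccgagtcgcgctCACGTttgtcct
Pfkfb4: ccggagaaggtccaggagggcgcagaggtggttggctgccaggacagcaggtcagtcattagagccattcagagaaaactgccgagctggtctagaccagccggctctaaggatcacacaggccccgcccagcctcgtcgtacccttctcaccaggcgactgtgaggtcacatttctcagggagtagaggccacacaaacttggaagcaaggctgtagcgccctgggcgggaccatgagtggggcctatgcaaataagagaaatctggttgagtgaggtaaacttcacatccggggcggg
Ldha: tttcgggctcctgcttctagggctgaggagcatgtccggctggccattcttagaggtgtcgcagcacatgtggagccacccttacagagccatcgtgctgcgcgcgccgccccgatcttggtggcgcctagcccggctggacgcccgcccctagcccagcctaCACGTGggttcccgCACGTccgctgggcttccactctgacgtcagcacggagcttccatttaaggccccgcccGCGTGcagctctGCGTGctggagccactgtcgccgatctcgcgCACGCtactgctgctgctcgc
Ankrd37: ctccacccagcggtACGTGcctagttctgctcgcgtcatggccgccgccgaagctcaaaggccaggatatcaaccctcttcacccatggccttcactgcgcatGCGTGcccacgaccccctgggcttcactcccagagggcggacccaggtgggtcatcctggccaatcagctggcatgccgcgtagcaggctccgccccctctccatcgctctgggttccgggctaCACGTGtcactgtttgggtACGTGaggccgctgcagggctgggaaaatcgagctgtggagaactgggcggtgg
P4ha1: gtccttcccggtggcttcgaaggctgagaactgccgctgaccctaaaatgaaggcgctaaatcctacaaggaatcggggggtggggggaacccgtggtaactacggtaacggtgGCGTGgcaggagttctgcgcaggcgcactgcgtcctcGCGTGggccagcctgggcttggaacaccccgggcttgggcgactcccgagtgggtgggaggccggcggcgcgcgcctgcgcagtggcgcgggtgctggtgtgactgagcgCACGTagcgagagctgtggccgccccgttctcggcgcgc
Pdk1: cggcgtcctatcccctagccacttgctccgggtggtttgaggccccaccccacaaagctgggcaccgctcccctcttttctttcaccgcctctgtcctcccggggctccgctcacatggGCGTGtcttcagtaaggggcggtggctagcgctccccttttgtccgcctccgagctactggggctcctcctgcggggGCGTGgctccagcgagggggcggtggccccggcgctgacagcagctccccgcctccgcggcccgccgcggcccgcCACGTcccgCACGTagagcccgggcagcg
The Ldha window held 3 matches of each form. The Eno1 window shown held 1 of each, with the ACGTG after the start, and the other Eno1 window (chr5:166002617-166002916) held 1 GCGTG and no ACGTG, and that of Pfkfb4 held none. Both genes passed the test with PDGFab. Ankrd37 had 4 matches of ACGTG and 1 of GCGTG, and P4ha1 had 1 and 2. Pdk1 had 2 of each and was at the control mean with PDGFab. These 6 were picked for different reasons, so they cannot show whether matches go with the changes, which was not tested.

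FGF2 gave changes in the same direction for most of the genes, but no call. Of the 33 genes, 28 lay above the control mean and 5 below it, with a median log2 change of 0.31 against -0.006 over all probe sets. None passed the adjusted threshold in limma, where 0.753% of all probe sets were called higher and 0.187% lower. An unadjusted p under 0.05 was found for 12, and the share of all probe sets at that cut is not given here. The wider criteria were met by 11 genes that stood higher and 1 that stood lower, against 4.43% and 2.36% of all probe sets. Tpi1, which the study lists as higher with FGF2 on the same probe set and on a further one, was not among them. The study also lists a triosephosphate isomerase under another symbol as higher. Only the first of these probe sets carried the symbol Tpi1 alone and was measured here. On that probe set the change was 0.46, with an unadjusted p of 0.0576 from limma. Eno1 came closest to the threshold, at 11.92, 11.89 and 12.29 against controls from 11.56 to 11.95, a change of 0.34 (SE 0.09, adjusted p = 0.0575). Only sample 3 exceeded the highest control. Its other probe sets gave 0.38 in each case, with adjusted p-values of 0.0316 and 0.0465. Aldoa followed with 0.47 (SE 0.13, adjusted p = 0.0626), at 11.31, 11.09 and 11.63 against a highest control of 11.26, which samples 1 and 3 exceeded.

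The other genes that met the wider criteria with FGF2 were led by Aldoc, with a change of 0.79 (SE 0.27), Hk2, with 0.75 (SE 0.28), and Eno2, with 0.75 (SE 0.26). Hk2 was at 6.89, 7.05 and 8.54 against a highest control of 7.36, so that sample 3 stood more than 1 log2 unit above all controls while samples 1 and 2 lay among them. Slc2a1 had the same form, at 8.76, 9.24 and 10.26 against a highest control of 9.57, with a change of 0.60. Ndrg1 changed by 0.57, Pgk1 by 0.53, Pkm by 0.35, Pfkfb4 by 0.31 and Gpi by 0.28. The lower gene was Egln1, the main oxygen sensor, at 6.75, 7.32 and 6.98 against controls from 6.76 through 7.63 to 7.92, a change of -0.54 (SE 0.20, adjusted p = 0.218 from limma). A second probe set of Egln1 gave -0.12 (unadjusted p = 0.523), so that the probe sets of this gene disagree. Pdk1 and Pgam1 were next lowest, with -0.16 and -0.07. Without FGF2 sample 3 the change was 0.22 for Hk2, 0.18 for Slc2a1, 0.22 for Pgk1, 0.41 for Eno2 and 0.21 for Eno1, and that of Pfkfb4 was 0.19 without sample 1. Without FGF2 sample 3, only 4 genes met the wider criteria, and without sample 2 there were 14. Of the 14, Aldoa, Eno1 and Pfkfb4 then passed the adjusted threshold. Shares over all probe sets are not given here for these fits.

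FGF2 and PDGFab share the 14 controls, and the 2 treatments were therefore compared with each other as well. No gene differed at the adjusted threshold, which only 0.00366% of all probe sets passed in this contrast. The 0 is thus no result about these genes. An unadjusted p under 0.05 was found for 1, without a share of all probe sets to set beside it. This was Slc2a3, 0.71 lower on the log2 scale with FGF2 (SE 0.29, unadjusted p = 0.0204, adjusted p = 1.0 from limma). Slc16a3 was lower with FGF2 by 0.62 (SE 0.35) and Eno1 by 0.19 (SE 0.11). Over the 28 pairs of growth factors there were 3 calls among these genes, and 0.621% of all tests over the 27342 probe sets were calls. The 3 are 0.325% of the 924 tests of these genes, below that share, so they do not set these genes apart. Eno1 was lower with GDNF than with PDGFab by 0.62 (SE 0.11, adjusted p = 0.005) and than with FGF2 by 0.44 (SE 0.11, adjusted p = 0.0312), and Slc2a3 was lower with GDNF than with PDGFab by 1.06 (SE 0.29, adjusted p = 0.0454). None of the 3 passed with the methods' t-test or without the third samples. Of them, Eno1 between GDNF and PDGFab kept an adjusted p of at most 0.0407 when any 1 sample of the pair was left out. Slc2a3 missed the threshold without GDNF sample 1 or 2 or PDGFab sample 1 or 3 (adjusted p from 0.154 to 0.203), and Eno1 between GDNF and FGF2 missed it without any 1 of the 3 GDNF samples or FGF2 sample 1 or 3 (0.0523 to 0.158). GDNF against PDGFab and GDNF against FGF2 were pairs with many calls, 2.53% and 3.13% of all probe sets. GDNF samples 1 and 3 were closest of all arrays to controls 12 and 14 (r = 0.745 and 0.698 across probe sets, over deviations from the mean of the 38 arrays), and the part of this in the contrasts with GDNF was not tested.

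With KITLG the genes tended the other way, without a call. At the adjusted threshold 0.00731% of all probe sets were higher and 0.0366% lower with KITLG. Of the 33 genes, 24 lay below the control mean and 9 above it, with a median of -0.13 against 0.001 over all probe sets, and 2 genes had an unadjusted p under 0.05. These 2 also met the wider criteria as lower and none as higher, against 2.28% and 2.17% of all probe sets. Pdk1 was at 8.37, 8.46 and 8.57, each below the lowest control at 8.59, where 0.347% of all probe sets had all 3 samples below every control. Its change was -0.47 (SE 0.16, adjusted p = 0.341 from limma), and the exact permutation p was 0.00147. Plod2 was at 9.45, 10.06 and 10.31 against controls from 9.56 through 10.61 to 11.18. Its change of -0.64 (SE 0.25, adjusted p = 0.411 from limma) was -0.40 without sample 1. The study lists Plod2 as lower with KITLG on the same probe set. KITLG sample 1 lay outside the controls in 3 of the 7 lists of cell type markers, with mean levels of 6.84 for endothelium, 7.73 for macrophages and 9.88 for surface epithelium, and their part in the result was not tested. Pfkp, with -0.45 and an adjusted p of 0.709, was next. Ddit4 and Ndrg1 were the highest, at 0.45 and 0.36, then Car9 at 0.22, and none of them met the criteria. Pdk1 also met the wider criteria with LIF, at 8.28, 8.59 and 8.84 and a change of -0.36 (SE 0.16, adjusted p = 0.605; -0.22 without sample 1), where 0.969% of all probe sets were lower by these criteria. Both comparisons use the same controls. LIF sample 1, the low one, was closest of all arrays to KITLG sample 1 (r = 0.726), and its macrophage marker mean of 7.71 exceeded the highest control at 7.52. The part of this in the result was not tested.

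FGF7, BMP4, LIF, AMH and GDNF had no call among the 33 genes at the adjusted threshold. Over all probe sets the shares higher and lower at that threshold were 0.00731% and 0.0731% with FGF7, 0.0439% and 0.23% with BMP4, 0.256% and 0.011% with LIF, 0.0% and 0.0% with AMH, and 1.57% and 0.322% with GDNF. The numbers with an unadjusted p under 0.05 were 2 with FGF7, 2 with BMP4, 2 with LIF, 1 with AMH and 0 with GDNF. The share of all probe sets at that cut is not given here, so these numbers are no result about the genes. With FGF7, 28 genes lay above the control mean, with a median of 0.19, and 1 met the wider criteria (2.04% of all probe sets higher, 2.12% lower). This was Ddit4, at 8.10, 7.89 and 7.95 within the control range of 6.43 to 8.41, with a change of 0.50 (SE 0.23, adjusted p = 0.617). Hk2 was at 7.32, 6.44 and 7.88 with FGF7, with sample 3 above the highest control at 7.36 and sample 2 below their median, and Car9 was 0.45 higher. The lowest were Egln1, on the brighter of its probe sets, Egln3 and Ankrd37, at -0.23, -0.18 and -0.12. With BMP4, Ddit4 met the wider criteria at a change of 0.49 (2.11% of all probe sets higher) and Egln1 at -0.59 (2.37% lower, adjusted p = 0.254). Without BMP4 sample 1, at 6.37, the change of Egln1 was -0.29. The second probe set of Egln1 gave -0.18 there. Ndrg1 and Car9 followed Ddit4, at 0.23 and 0.16, and Pdk1 and Egln3 were at -0.24 each. With LIF, Ndrg1 met the criteria at 9.10, 8.80 and 8.59, a change of 0.41 (SE 0.18, 2.85% of all probe sets higher), which was 0.27 without sample 1. Aldoc and Ddit4 came next, at 0.28 and 0.25, and Egln3 and Ankrd37 were at -0.35 and -0.29. A count of 1 gene of the 33 in a direction lies near the shares given in this paragraph. Such counts with FGF7, BMP4 and LIF are thus no result about these genes.

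With the p of limma, AMH and GDNF left no gene past the wider criteria. Of all probe sets, 1.42% and 1.96% met them as higher and 0.731% and 4.03% as lower. The study's own list for AMH holds Egln3 as lower on the same probe set, where limma gave an unadjusted p of 0.0719. With AMH the highest changes were those of Car9, Aldoc and Slc2a3, at 0.37, 0.35 and 0.33. The lowest were those of Egln1, Egln3 and Pgam1, at -0.37, -0.35 and -0.22. The second probe set of Egln1 gave -0.16 with AMH (unadjusted p = 0.385 from limma). With GDNF, Adm, Slc16a3 and Pfkm were highest, at 0.36, 0.23 and 0.21, and Egln3, Tpi1 and Pgam1 lowest, at -0.24, -0.16 and -0.15. GDNF shifted the median over all probe sets to 0.036, beside a median of 0.07 over the 33 genes.

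A score over the genes showed how far single arrays carried these differences. Each gene was set to a mean of 0 and an SD of 1 over the 38 arrays, and the score is the mean over the 33 genes. It was 0.93, 0.63 and 1.92 in the PDGFab samples, -0.11, 0.18 and 1.81 in the FGF2 samples and 0.50, -0.62 and 1.09 in the FGF7 samples. The controls ran from -0.73 to 1.00 with a median of -0.35. PDGFab sample 1 and sample 2 thus lay within the range of the controls, below control 14 and above the other 13, and only sample 3 lay above it. The difference from the control mean was 1.33 for PDGFab, 0.80 for FGF2, 0.49 for FGF7, 0.11 for GDNF, 0.04 for AMH, -0.12 for BMP4, -0.14 for LIF and -0.36 for KITLG. The 17 other genes and the 16 glycolytic enzymes, scored apart, gave PDGFab sample 3 the values 1.93 and 1.92.

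Sample 3 had the highest score of its group in all 8 groups of the 38-array set. Over the 33 genes and 8 groups, it held the highest of the 3 values in 193 of 264 cases, or 73.1%, where over all probe sets it held the highest in 31.0%. Sample 1 was highest in 18.2% of the cases and sample 2 in 8.71%. PDGFab sample 3 was the highest of all 38 arrays for 16 of the genes and FGF2 sample 3 for 9. Control 3 had a score of -0.53, but numbers were not taken as pairs in this set. By deviations from group means, the third samples of AMH, FGF7 and FGF2 were closest among the controls to control 6 (score 0.50). Those of BMP4 and PDGFab were closest to control 7 (-0.03), and that of GDNF to control 14 (1.00). Those of KITLG and LIF were closest to controls 13 and 8 (-0.03 and -0.48). The part of this in the result was not tested. With sample 3 left out of every growth factor, the score difference was 0.95 for PDGFab, 0.21 for FGF2 and 0.11 for FGF7. The number of genes meeting the wider criteria was then 16 with PDGFab, 4 with FGF2 and 0 with FGF7. Of all probe sets 4.52%, 7.21% and 2.38% met them in these fits. No gene was called in any comparison of this set, where 0.0% of all probe sets were called with PDGFab and 0.406% with FGF2. Whether the third samples shared a day of culture was not tested, since the labels do not give the day.

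**Figure D3:**
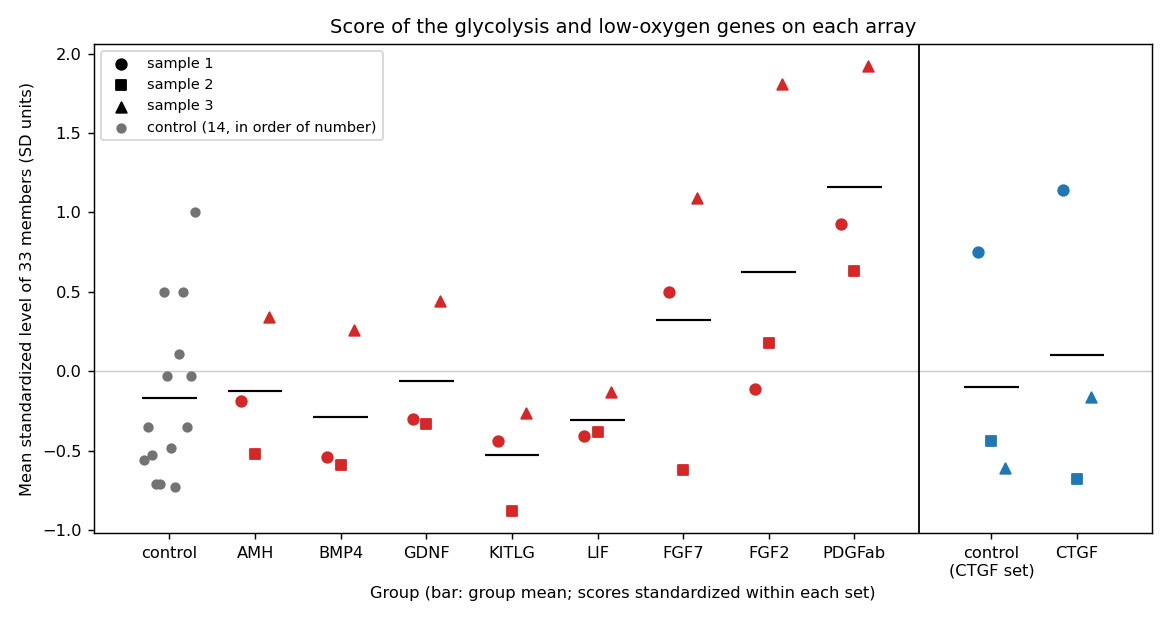
Mean standardized level of the 33 genes (in SD units, vertical axis) on each array, by group, with bars at the group means and the CTGF set standardized on its own at the right. The triangles, sample 3, are the highest of their group for all 8 growth factors of the larger set, at 1.92 for PDGFab and 1.81 for FGF2, and sample 1 is the highest in both groups of the CTGF set.

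Markers of other cells were set beside these scores. In PDGFab sample 3 the mean log2 level of the markers measured was 10.15 for the oocyte list, 9.64 for pregranulosa cells, 5.77 for red blood cells, 7.27 for endothelium, 7.08 for macrophages, 6.20 for smooth muscle and 9.20 for surface epithelium, each within the range of the controls. In FGF2 sample 3 the values were 10.10, 9.62, 5.76, 7.60, 6.91, 5.72 and 9.40, also within it or at its edge. FGF2 sample 1 lay outside the range of the controls in all 7 lists, with an oocyte mean of 8.31 below the lowest control at 8.82 and a smooth muscle mean of 6.90 above the highest at 6.67. PDGFab sample 1 lay below the controls in the pregranulosa list, at 8.96 against a lowest control of 9.00. In the smooth muscle list PDGFab samples 1 and 3, at 6.54 and 6.20, exceeded all controls but control 1, at 6.67, and sample 2 was at 6.08. With PDGFab 4 of the 5 smooth muscle markers were higher, with a median log2 change of 0.25, and 0 met the wider criteria. No marker passed the adjusted threshold with PDGFab and 1 of 33 did with FGF2, in the list of surface epithelium. The part of these in the changes above was not tested.

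The genes varied widely among untreated ovaries. The SD over the 14 controls had a median of 0.328 over the 33 genes and 0.197 over all probe sets, and 25 of the 33 lay above the latter. Ddit4 spanned 1.98 log2 units from the lowest to the highest control, Car9 1.91 and Aldoc 1.62. Control 14 was the highest control for 19 of the 33 genes, and its share over all probe sets is not given here. To describe how the genes vary together without treatment, each was set against Pgk1 across the 14 controls, which gave 32 relations. Of these, 29 had a positive Pearson r, with a median of 0.617, and 18 passed a permutation test at an adjusted p under 0.05. Over the other 27341 probe sets r was positive in 43.2% and had a median of -0.0565, and 2.36% reached the lowest r of the 18 genes, 0.611. P4ha1 was closest to Pgk1, with r = 0.856 (permutation, adjusted p = 0.0024) and Spearman rho = 0.802 (adjusted p = 0.0124), and r was 0.812 without controls 1 and 11, the farthest from the median of Pgk1. Ankrd37 had r = 0.817 and rho = 0.859 (permutation, adjusted p = 0.0024 and 0.00672), and r = 0.864 without those controls. Tpi1 gave r = 0.817, Hk2 0.805, Bnip3 0.802 and Slc16a3 0.78.

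Other genes did not follow Pgk1. Ldhb had r = -0.0566, Egln3 -0.0731 and Car9 -0.0732, with adjusted permutation p-values of 0.844, 0.83 and 0.83. Pgam1 and Egln1 had r = 0.0805 and 0.124, and the probe set of Pgam1 was dim. The 3 genes that passed the test with PDGFab differed among themselves in this respect: r was 0.758 for Eno1, 0.62 for Slc2a3 and 0.265 for Pfkfb4 (permutation, adjusted p = 0.00763, 0.0341 and 0.441). Without controls 1 and 11 the value for Pfkfb4 was 0.635. Without control 14, or without controls 12, 13 and 14, 11 of the 32 relations passed. Days of culture may be shared among controls, and the labels do not say which, so that the 14 may not be independent.

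**Figure D4:**
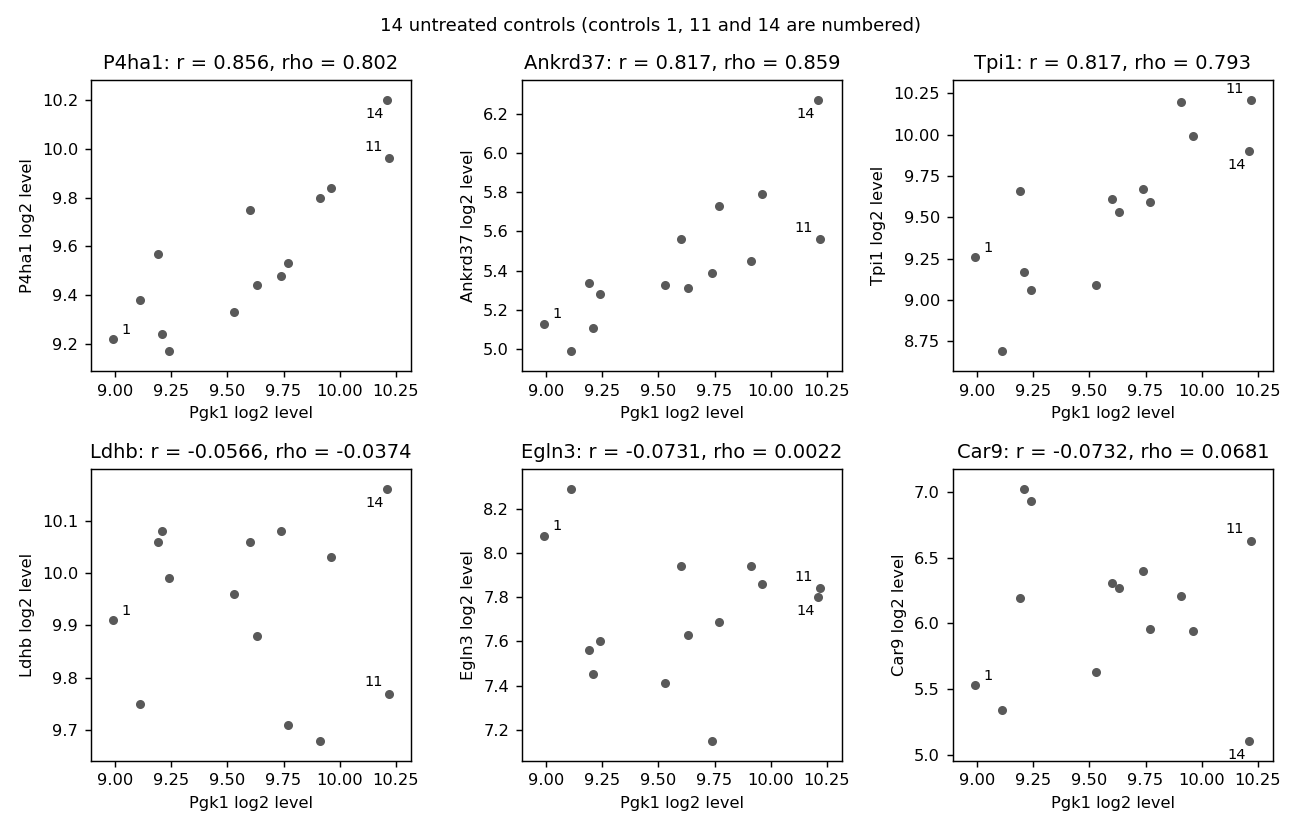
Log2 level of Pgk1 (horizontal axis) against 6 other genes (vertical axes) in the 14 untreated controls, with controls 1, 11 and 14 numbered. P4ha1, Ankrd37 and Tpi1 rise along Pgk1 with r of 0.856, 0.817 and 0.817, and Ldhb, Egln3 and Car9 show no slope, with r between -0.0732 and -0.0566.

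CTGF was compared with the 3 controls of its own set. Without regard to replicate numbers, 24 of the 33 genes lay above the control mean and 9 below, with a median of 0.08 against 0.003 over all probe sets. No gene passed the adjusted threshold (0.0% of all probe sets in either direction), met the wider criteria (0.318% of all probe sets higher, 0.443% lower) or had an unadjusted p under 0.05. The smallest p that an exact permutation test of 3 against 3 can give is 0.1. The highest changes were those of Hk2, P4ha2 and Pfkp, at 0.35, 0.28 and 0.26, and the lowest those of Pgam1, Bnip3 and Egln1, at -0.15, -0.13 and -0.13.

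In this set the replicate numbers paired the samples, and samples of number 1 were high in both groups. Slc2a3 was at 7.86 in control 1 and 8.20 in CTGF sample 1, and between 6.26 and 6.61 in the other 4 samples. Eno2 was at 9.29 and 9.70 in the samples of number 1 and between 7.89 and 8.43 in the rest. The score was 0.75 and 1.14 in the samples of number 1 and between -0.68 and -0.16 in the other 4, so that the pair of number 1 stood further from the other pairs than CTGF did from control within any pair. With the number as a block in limma, 3 genes met the wider criteria, all higher, where 0.973% of all probe sets did so and 1.02% met them as lower, and none passed the adjusted threshold. Hk2 was higher with CTGF by 0.51, 0.12 and 0.41 in the 3 pairs (blocked change 0.35, SE 0.09, adjusted p = 0.396). P4ha2 was higher by 0.26, 0.15 and 0.42 (0.28, SE 0.08, adjusted p = 0.4), and Ndrg1 by 0.51, 0.09 and 0.11 (0.24, SE 0.10, adjusted p = 0.47).

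**Figure D5:**
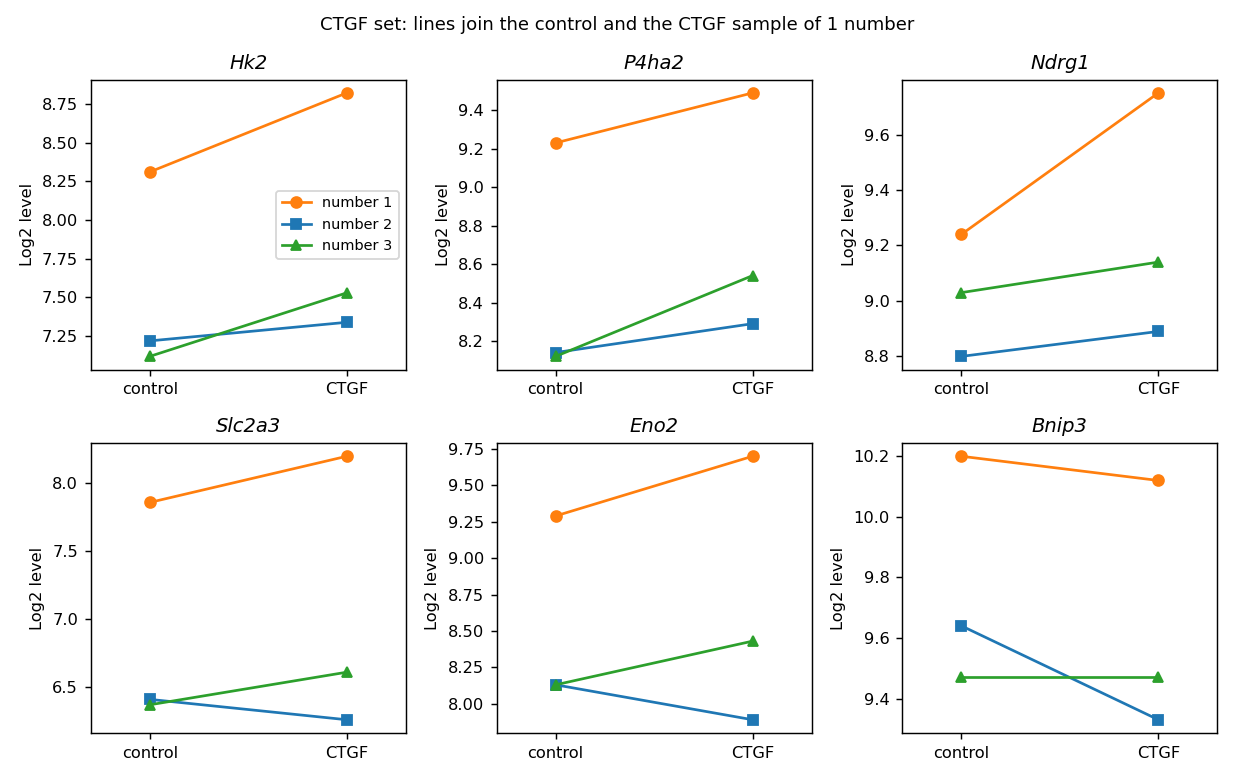
Log2 level of 6 genes in the CTGF set, with lines joining the control and the CTGF sample of the same number. The samples of number 1 are the highest in all 6 panels, and Hk2, P4ha2 and Ndrg1 are higher with CTGF in each of the 3 pairs.

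The wider pathway was described by 78 further genes: HIF factors and their regulators, other isozymes, carriers and switches, further low-oxygen targets, pentose phosphate and gluconeogenesis enzymes, and other collagen hydroxylases and lysyl oxidases. With PDGFab, 16 of the 78 met the wider criteria as higher and 1 as lower, against 3.64% and 1.69% of all probe sets. None passed the adjusted threshold, as 0.183% of all probe sets did higher and 0.0512% lower. The largest changes were those of Lox, a lysyl oxidase that crosslinks collagen, with 0.84 (SE 0.31), and Vegfa, the vascular growth factor that HIF induces, with 0.77 (SE 0.27). Vegfa was at 8.70, 8.45 and 8.88 against controls from 7.43 through 7.82 to 8.64, so that samples 1 and 3 exceeded all controls. Mpc1, a subunit of the mitochondrial pyruvate carrier, was the lower gene, with -0.44. Hif1a itself, the oxygen-regulated HIF subunit, was at 10.83, 11.03 and 10.93 within the control range of 10.66 to 11.28, a change of -0.08 (SE 0.12).

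With FGF2, 9 of the 78 met the wider criteria as higher and 4 as lower, against 4.43% and 2.36% of all probe sets. At the adjusted threshold 2 rose, against 0.753% of all probe sets. Plod1, a lysyl hydroxylase of collagen, was at 9.03, 8.67 and 9.29 against controls from 7.92 through 8.30 to 8.75, a change of 0.70 (SE 0.16, adjusted p = 0.0219 from limma). Samples 1 and 3 lay above all controls. Pck2, the mitochondrial enzyme that makes phosphoenolpyruvate, was at 7.48, 7.32 and 7.37, all above the highest control at 7.19, with a change of 0.41 (SE 0.10, adjusted p = 0.0263). With PDGFab the same genes changed by 0.67 and 0.40, both with an adjusted p of 0.0532, against the same controls. Fbp2, a fructose bisphosphatase that opposes glycolysis, was the lowest with FGF2, at -0.76 (SE 0.25, adjusted p = 0.148), and Slc16a7, a lactate and pyruvate carrier, was at -0.40. In the other comparisons no gene of the 78 passed the adjusted threshold. The wider criteria were met there by 7 genes with FGF7 and 7 with KITLG, by 5 with BMP4 and 5 with GDNF, by 2 with AMH, 1 with LIF and 0 with CTGF. In both directions together, these criteria were met by 4.16% of all probe sets with FGF7, 4.44% with KITLG, 4.48% with BMP4, 5.99% with GDNF, 2.15% with AMH and 3.82% with LIF, so that the counts with GDNF, AMH and LIF lay near or below the background and are no result about these genes. The genes named next are those with the largest changes among them. Mpc1 was lowest among them with FGF7 and BMP4 (-0.50 and -0.49), followed by Rpe with FGF7 (-0.38) and Fam162a with BMP4 (-0.44). Fbp2 and Hif3a were lowest with GDNF (-0.53 and -0.52), and Loxl3 was at 0.30. Hif3a was highest with BMP4 and KITLG (0.45 each), followed in both by Pgls (0.33 and 0.34), a step of the pentose phosphate path. Vldlr and Hif1an were the 2 that stood higher with FGF7 (0.39 and 0.38), Lox and Stc2 those with AMH (0.64 and 0.28). Dld and Slc16a7 were lowest with KITLG (-0.31 each), and Slc16a7 was the gene with LIF (-0.34).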

How the data were processed

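RNA of 44 samples was measured on Affymetrix Rat Gene arrays. The authors processed each set apart in Partek, with RMA and a GC adjustment, and deposited log2 levels, which were used unchanged. Groups came from the sample labels, and comparisons stayed within a set. The annotation gave 1 symbol to 15097 of the 27342 probe sets. The members and gene lists were chosen with earlier results of these data known. Named are members past either threshold, the 3 highest and 3 lowest in each comparison, and pathway genes past the adjusted threshold or, failing that, the 2 largest in each direction that met the study criteria. Genes with several probe sets were represented by the brightest.

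Each growth factor was compared with its controls in R 4.3.3 with limma 3.58.1 (lmFit, eBayes), two-sided, with Benjamini-Hochberg adjustment over all probe sets. Exact permutation tests used all 680 splits of 3 against 14. Correlations used 100000 permutations and adjustment over 32 relations. Other steps used pandas 2.3.3, scipy 1.17.1 and numpy 2.4.6 under Python 3.11.15, and the fits were first tested on simulated data. The p-values measure the spread between pooled samples, and the number of arrays limits the precision. Whether replicate numbers pair samples was checked from deviations from group means: in the CTGF set the pairs had r = 0.842, 0.623 and 0.647, and each CTGF sample matched its own number best, so the blocked fit is given. In the larger set 3 of 24 treated samples (KITLG, LIF and FGF2 sample 1) matched the control of their own number best, control 1, at r = 0.615, 0.694 and 0.74, and the other 21 did not, so the numbers were not taken as pairs.

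The first alternative was a plain t-test with pooled variance on the log2 levels, since the study does not state the form of its t-test. The others were a fit of each treatment with the controls alone, the replicate block, array weights, quantile normalization and the median over probe sets. Further fits left out the dimmest 25% of probe sets, controls 12, 13 and 14, or single samples. Leaving out control 14 and leaving out the third samples were added after seeing the data.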

Additional observations from a re-analysis of the deposited data

How the results depend on the processing

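No gene or count past its threshold changed direction under the alternatives run. Counts of genes meeting the study criteria are called criteria counts here, and counts at the adjusted threshold are called calls. With array weights there were 15 calls with PDGFab, 1 with BMP4, 1 with FGF2 and 20 between growth factors. In the same fits 4.13%, 4.57%, 1.24% and 3.69% of all probe set tests were calls. Criteria counts were 1 with AMH, 8 with FGF7 and 5 with KITLG, against 2.22%, 5.62% and 4.6% of all probe sets. With the median over probe sets FGF2 had 1 call, where 0.944% of all probe sets were called. With the pooled-variance t-test PDGFab had 0 calls and the pairs of growth factors 0, where 0.0% and 0.0257% of all probe set tests were calls. The criteria counts were 1 with BMP4 and 0 with FGF7, against 3.49% and 3.1% of all probe sets. With each treatment and the controls alone PDGFab had 0 calls, where 0.0% of all probe sets were called. The criteria counts were 1 with AMH, 1 with BMP4, 0 with FGF7 and 5 with KITLG. Of all probe sets 1.61%, 4.03%, 3.79% and 3.81% met the criteria in these fits. Quantile normalization gave criteria counts of 1 with AMH, 2 with FGF7 and 1 with LIF, against 2.18%, 4.15% and 3.74% of all probe sets. Without controls 12, 13 and 14 there were 6 calls with PDGFab, 2 with FGF2, 6 between growth factors and 11 relations with Pgk1. Of all probe set tests, 0.347%, 0.936% and 1.58% were calls. The 6 between growth factors are 0.649% of the tests of these genes, below that share. Criteria counts were 1 with AMH, 1 with BMP4, 3 with FGF7 and 1 with GDNF. In these fits 2.51%, 4.02%, 4.22% and 10.4% of all probe sets met the criteria. Without control 14, added after seeing the data, there were 7 calls with PDGFab, 2 with FGF2 and 11 relations with Pgk1. Of all probe sets 0.399% and 1.05% were called. Criteria counts were 4 with FGF7 and 1 with GDNF, against 4.26% and 7.06% of all probe sets. Without the third samples, also added after seeing the data, there were 0 calls with PDGFab and 0 between growth factors. Of all probe set tests 0.0% and 0.0294% were calls. Criteria counts were 3 with AMH, 4 with FGF2, 0 with FGF7 and 6 with KITLG. In these fits 3.58%, 7.21%, 2.38% and 5.07% of all probe sets met the criteria. Criteria counts near or below these shares are no result about these genes. The cause of the differences between fits was not tested.

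With the replicate number as a block, which keeps only controls 1 to 3 of the larger set, there were 6 calls with PDGFab, 1 with FGF2 and 21 between growth factors, criteria counts of 3 with AMH, 12 with FGF7, 5 with GDNF, 1 with LIF and 3 with CTGF, and a score difference of 0.17 with LIF. In these fits 0.238%, 0.457% and 1.88% of all probe set tests were calls. The criteria were met by 6.24% of all probe sets with AMH, 12.1% with FGF7, 14.3% with GDNF, 6.39% with LIF and 2.0% with CTGF. The numbers of the larger set were not taken as pairs, although KITLG, LIF and FGF2 sample 1 each matched control 1 best.

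Leaving out 1 sample at a time, calls ran from 0 to 4 with PDGFab, from 0 to 3 with FGF2 and from 1 to 5 between growth factors. Criteria counts ran from 16 to 22 with PDGFab, 4 to 16 with FGF2, 0 to 8 with FGF7, 1 to 7 with KITLG, 0 to 2 with LIF, 0 to 1 with AMH and 0 to 1 with BMP4. Score differences ran from 0.95 to 1.59 with PDGFab, 0.21 to 1.17 with FGF2, 0.11 to 0.97 with FGF7, -0.15 to 0.24 with GDNF, -0.19 to 0.24 with AMH, -0.40 to 0.03 with BMP4, -0.23 to -0.09 with LIF, -0.49 to -0.18 with KITLG and -0.32 to 0.62 with CTGF. Of 507 values of single genes under all alternatives, 453 kept their side of the threshold, 37 moved past it and 17 fell short of it. With 3 samples a treatment, changes smaller than the spread between samples were not detectable.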
